A study of Pan troglodytes and Macaca mulatta with 12 samples.

Results

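The genes described here are 10 sensors, adaptors and signalling proteins of the response to nucleic acids inside the cell, taken from RNA sequencing of chimpanzee and rhesus macaque lymphoblastoid cell lines. They were chosen by identifier from a fixed list, and all 10 of 10 were found among the 16903 genes of the files. Lymphoblastoid lines are B lymphocytes made to grow indefinitely in culture, and each of the 12 lines came from a separate animal. The chimpanzee group held 6 untreated lines (3 from females and 3 from males) and the rhesus macaque group 6 untreated lines (2 from females and 4 from males). All were grown in the same supplemented RPMI medium. The labels state neither the animals' ages nor how the lines were immortalised, and no infection or stimulation is labelled.

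DNA in the cytosol is bound by cGAS, which makes a cyclic dinucleotide that activates STING at the endoplasmic reticulum. STING and the mitochondrial adaptor MAVS, which serves the RNA sensors of the RIG-I family, both recruit the kinase TBK1, and TBK1 phosphorylates the transcription factor IRF3, which then switches on type I interferon. AIM2, IFI16 and MNDA belong to a separate family that carries pyrin and HIN domains. AIM2 binds double-stranded DNA and assembles an inflammasome instead of signalling to interferon. The pathway is best known from macrophages and fibroblasts, but B cells also carry several of its parts.

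The libraries held between 1434241 and 4751954 counts. The first principal component of all tested genes, with 63.5% of the variance, separated the species. Along the second component, with 9.20%, chimpanzee replicate 1 stood at 61.7 and the other 11 libraries between -48.1 and 36.1. Chimpanzee replicate 1 was also the library with the fewest counts. The files name genes by identifier only, and none of the identifiers matched the tables of gene names at hand, so B cell markers, markers of other cell types and further genes of the pathway were not looked up. The symbols of the 10 members come with the list itself. In the RefSeq table of chimpanzee genes AIM2 and IFI16 are direct neighbours, and in the files they were also next to each other, 8.53 kb apart on chromosome 1.

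Levels are given in CPM, counts divided by a scaled library size, the usual unit for comparing one gene between libraries. Of the 10 genes, 9 had enough counts for the species test. MNDA did not. STING1, CGAS and TBK1 were higher in chimpanzee and AIM2 and IRF3 were lower (edgeR quasi-likelihood test, adjusted p under 0.05 over 9440 genes). IFI16, ZBP1, DHX58 and MAVS did not pass. The background is high in this comparison: 24.7% of all tested genes were called higher and 23.6% lower in chimpanzee, together 48.3%. With 5 of 9 members called, the share of called genes in the pathway was close to that of the transcriptome. The median log2 fold change (chimpanzee minus rhesus macaque) was 0.22 over the 9 members and 0.04 over all tested genes, and the median size of the difference was 0.68 and 0.71 on the log2 scale. In 4 members the species did not overlap at all, a separation seen in 27.1% of tested genes. In RNA from whole cultures, fewer cells that express a gene and less RNA per cell cannot be told apart. The labels do not say how exons of the species were matched, and the part of this in the species differences was not tested.

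**Figure D1:**
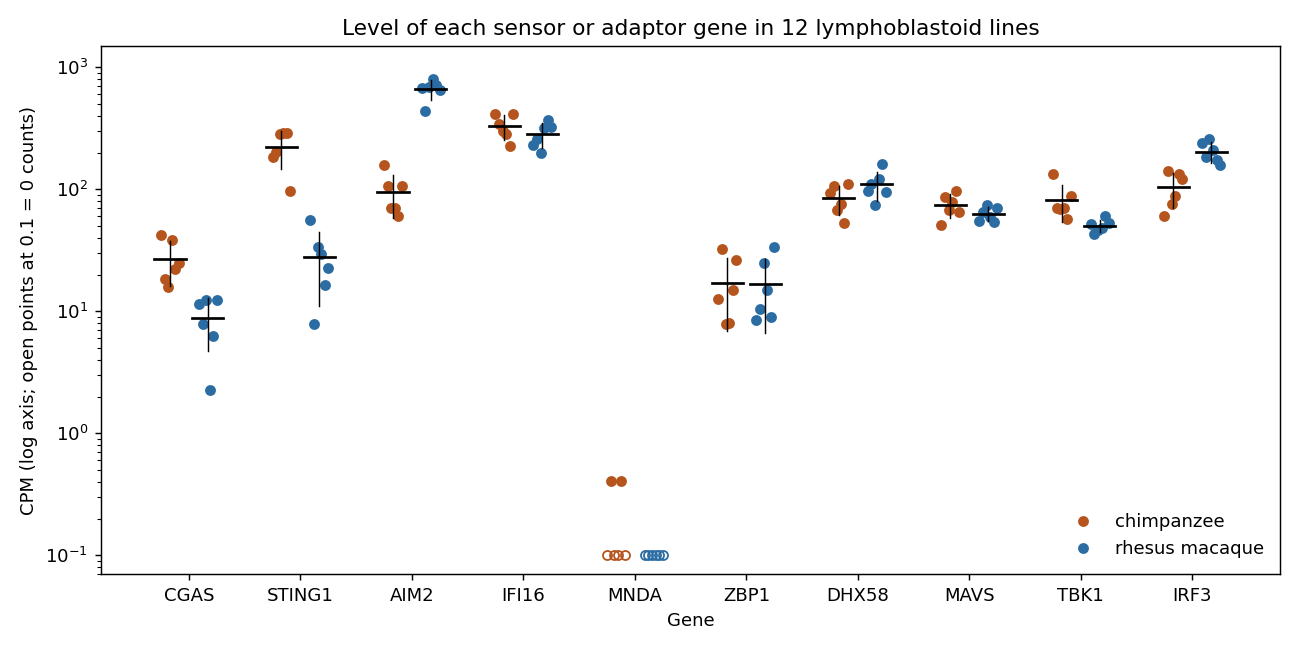
Level of the 10 genes in CPM (log axis) in each library, with 6 chimpanzee and 6 rhesus macaque libraries per gene. Horizontal bars are means and vertical bars 1 SD (n = 6), and open points at the bottom stand for libraries with 0 counts. The 2 species do not overlap for CGAS, STING1, AIM2 and IRF3, and MNDA is near 0 in both.

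The DNA sensor cGAS was the least abundant tested member in rhesus macaque. Its gene, CGAS (ENSG00000164430), is counted on 5 exons of chromosome 6 between 74179959 and 74212191. In chimpanzee it ran from 15.8 CPM over a median of 23.6 to 42.6 CPM. In rhesus macaque it ran from 2.263 CPM over a median of 9.75 to 12.5 CPM. All 6 chimpanzee libraries thus lay above all 6 macaque ones. The means were 27.0 ± 10.9 and 8.81 ± 4.08 CPM (SD, n = 6 each). This is a 3.06-fold higher level in chimpanzee (log2 fold change 1.61, SE 0.39, edgeR adjusted p = 0.00384). A difference beyond 2-fold did not pass its own test (edgeR glmTreat adjusted p = 0.0991), and the approximate 95% interval of the fold ran from 1.79 to 5.23. Counting was thin: the gene had 429 counts over the chimpanzee and 148 over the macaque libraries, with 7 in the lowest library. Of the 5 exons, 4 had enough counts for a test, and all 4 were higher in chimpanzee, by 1.11 to 1.70 on the log2 scale, 2 of them past the test for single exons.

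STING1 and AIM2 differed most between the species, and the order of the pair was not settled: AIM2 had the larger difference without rhesus macaque replicate 2 (-2.92 against 2.82 on the log2 scale for STING1). The gene (ENSG00000184584, chromosome 5 from 138835734 to 138842476, 6 exons) encodes STING, the adaptor that relays the cGAS signal. Chimpanzee lines held from 96.8 CPM over a median of 245 to 289 CPM. Macaque lines held from 7.90 CPM over a median of 26.0 to 56.1 CPM. Even the lowest chimpanzee library, replicate 6, was above the highest macaque library, replicate 1. The means of 225 ± 78.0 and 27.7 ± 16.7 CPM (SD, n = 6 each) correspond to an 8.18-fold higher level in chimpanzee (log2 fold change 3.03, SE 0.41, edgeR adjusted p = 4.10e-05), with an approximate 95% interval from 4.69-fold to 14.3-fold. The difference passed the test beyond 2-fold (edgeR glmTreat adjusted p = 0.000364), as did 17.3% of all tested genes. All 6 exons rose in chimpanzee, by 1.99 to 3.73 on the log2 scale, and each passed by itself. Since exons were summed to give the STING1 level, they are not separate evidence. Among all tested genes, 92.7% differed less between the species than STING1.

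Of the members with pyrin and HIN domains, AIM2 and IFI16 could be tested. AIM2 (ENSG00000163568, 6 exons on chromosome 1 from 157298665 to 157313180) was lower in chimpanzee. It ran from 60.5 CPM over a median of 88.0 to 160 CPM in chimpanzee and from 438 CPM over a median of 688 to 796 CPM in rhesus macaque. The lowest macaque library, replicate 2, still held more than 2 times the level of the highest chimpanzee library, replicate 1. The means were 95.4 ± 37.0 and 663 ± 120 CPM (SD, n = 6 each), a 6.96-fold lower level in chimpanzee (log2 fold change -2.80, SE 0.26, edgeR adjusted p = 1.81e-06), with an approximate 95% interval from 4.92-fold to 9.85-fold. It passed the test beyond 2-fold (edgeR glmTreat adjusted p = 1.8e-05). The 6 exons all fell and all passed singly, by log2 fold changes from -3.54 to -1.84. AIM2 and STING1 were the 2 of 9 members that differed by more than 2-fold by test, and they did so in opposite directions.

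IFI16 (ENSG00000163565), a mostly nuclear DNA sensor, is counted on 4 exons from 157254643 to 157290138, right beside AIM2. Chimpanzee lines held from 228 CPM over a median of 320.0 to 418 CPM, and macaque lines from 199 CPM over a median of 287 to 370.1 CPM. The ranges overlapped, and 2 of 6 chimpanzee libraries exceeded the highest macaque one. With means of 330 ± 74.8 and 283 ± 63.8 CPM (SD, n = 6 each), the difference did not pass (log2 fold change 0.22, SE 0.20, edgeR adjusted p = 0.389). Its approximate 95% interval, from -0.18 to 0.61 on the log2 scale, leaves out a difference of the size seen in AIM2. MNDA (ENSG00000163563), a nuclear antigen of myeloid cells and some B cells, had 2 counts in all, 1 each in chimpanzee replicates 2 and 5, on 2 exons between 157067785 and 157084330. No count was seen among the 17739797 of the macaque libraries, which allows a level of up to 0.175 CPM, so no comparison of MNDA was possible at this depth.

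The gene tested next to IFI16 on its other side, at 157167966 to 157181456 between MNDA and IFI16, was not paired with a name. It had 0 counts in all chimpanzee libraries and 75.7 ± 30.2 CPM in rhesus macaque (SD, n = 6), from 32.9 to 123 CPM, at least 421-fold higher there against a floor of 3 counts summed over chimpanzee libraries (edgeR adjusted p = 2.07e-06). Only tested genes and MNDA were looked at here, so the list of genes in this stretch is not complete. From MNDA to AIM2 these were MNDA near 0 in both species and a gene with counts in macaque alone. They were followed by IFI16, which did not pass the test, and AIM2 at higher levels in macaque. The part of exon matching between the species in these 0 counts was not tested either.

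**Figure D2:**
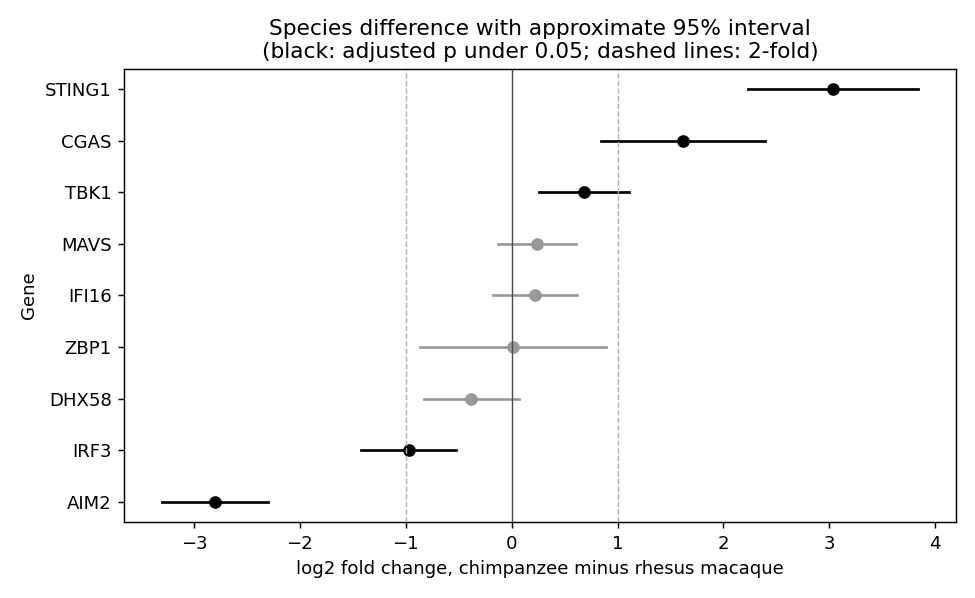
Log2 fold change, chimpanzee minus rhesus macaque, of the 9 tested genes with approximate 95% intervals (n = 6 libraries per species). Black genes passed the edgeR test and grey ones did not, and dashed lines mark 2-fold. STING1 (3.03) and AIM2 (-2.80) lie at opposite ends, with their whole intervals beyond the dashed lines. The point of CGAS (1.61) is also beyond, but its interval, from 0.84 to 2.39, crosses the line.

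ZBP1 and DHX58 are sensors whose genes are themselves induced by interferon. ZBP1 (ENSG00000124256, chromosome 20 from 55615515 to 55628935, 6 exons) binds nucleic acids in the Z form and can start cell death through RIPK3. It ran from 7.88 CPM over a median of 13.7 to 32.4 CPM in chimpanzee and from 8.54 CPM over a median of 12.6 to 33.5 CPM in rhesus macaque. The 2 ranges were nearly the same, and the means of 17.1 ± 10.1 and 16.9 ± 10.2 CPM (SD, n = 6 each) gave a log2 fold change of 0.01 (SE 0.45, edgeR adjusted p = 0.982), which turned to -0.002 with RLE size factors. The lines of each species differed more from each other than the species did, by 4.11-fold between the highest and lowest chimpanzee line and by 3.92-fold in macaque. The approximate 95% interval, from -0.86 to 0.89 on the log2 scale, still admits a difference of nearly 2-fold either way.

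DHX58 (ENSG00000108771, chromosome 17 from 37507760 to 37517437, 11 exons) encodes LGP2, a relative of RIG-I that modulates RNA sensing. Its levels ran from 53.3 CPM over a median of 84.3 to 109.7 CPM in chimpanzee and from 74.8 CPM over a median of 104 to 160.1 CPM in macaque. The groups overlapped, with 2 of 6 chimpanzee libraries below every macaque one. The difference did not pass (log2 fold change -0.38, SE 0.23, edgeR adjusted p = 0.181), although 10 of 11 exons had a negative value and 1 exon passed by itself. The next tested gene on the chromosome, 1.22 kb away at 37518657 to 37526872, was lower in chimpanzee (79.3 against 440 CPM, log2 fold change -2.47, SE 0.28, edgeR adjusted p = 9e-06). No exon of DHX58 overlaps an exon of another gene in the files.

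The adaptor of the RNA sensors did not pass the test. MAVS (ENSG00000088888, chromosome 20 from 3786282 to 3795973, 4 exons) ran from 50.9 CPM over a median of 73.3 to 96.5 CPM in chimpanzee and from 54.2 CPM over a median of 62.5 to 74.3 CPM in macaque. The macaque range lay inside the chimpanzee one. Its log2 fold change of 0.24 (SE 0.19) did not pass (edgeR adjusted p = 0.313), and the approximate 95% interval, from -0.13 to 0.61, stays under 2-fold. One exon of 1644 bases held 76.8% ± 2.54 of the gene's counts in chimpanzee and 74.2% ± 5.39 in macaque (SD, n = 6 each). The MAVS value rests largely on it, and without that exon the log2 fold change was -0.006.

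TBK1 (ENSG00000183735, chromosome 12 from 63132204 to 63182158, 21 exons), the kinase shared by the STING and MAVS branches, was modestly higher in chimpanzee. Chimpanzee lines held from 57.3 CPM over a median of 70.1 to 134 CPM and macaque lines from 43.4 CPM over a median of 50.3 to 59.97 CPM. In 5 of 6 chimpanzee lines the level was above that of every macaque line, and replicate 5 at 57.3 CPM was the exception. The means of 81.4 ± 27.6 and 50.5 ± 5.85 CPM (SD, n = 6 each) gave a 1.61-fold difference (log2 fold change 0.68, SE 0.21, edgeR adjusted p = 0.0170). The highest value belonged to chimpanzee replicate 1, without which the log2 fold change was 0.48 (edgeR adjusted p = 0.0298). The exons of TBK1 did not move alike. Of the 20 tested, 16 had a positive value and 4 a negative one, from -0.70 to 2.82 on the log2 scale. Higher in chimpanzee were all 5 that passed singly. The longest exon, of 782 bases, held 17.7 CPM in chimpanzee and 17.8 CPM in macaque.

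IRF3 (ENSG00000126456, chromosome 19 from 54854642 to 54859915, 4 exons) is the transcription factor that TBK1 activates, and it was lower in chimpanzee. Levels ran from 60.7 CPM over a median of 105 to 142 CPM in chimpanzee and from 157 CPM over a median of 197 to 259.7 CPM in rhesus macaque, with no overlap. The means were 104 ± 33.3 and 204 ± 39.5 CPM (SD, n = 6 each), a 1.96-fold lower level in chimpanzee (log2 fold change -0.97, SE 0.23, edgeR adjusted p = 0.0030). The test beyond 2-fold was not passed (edgeR glmTreat adjusted p = 0.763). All 4 exons were lower, from -1.65 to -0.64 on the log2 scale, and 3 passed singly. Over the 638 tested genes of chromosome 19 the median log2 fold change was -0.58, and 44.4% of them were called lower in chimpanzee. The part of this shift in the IRF3 value was not tested. In chimpanzee replicate 1, the library lowest in IRF3, the chromosome 19 genes deviated by a median of -0.66 from the chimpanzee mean, and without that library the IRF3 log2 fold change was -0.86 (edgeR adjusted p = 0.00449). Of the genes on each side of IRF3, 0.93 and 0.30 kb away, one was lower in chimpanzee (log2 fold change -0.80, edgeR adjusted p = 0.0257) and the other did not pass (0.21, edgeR adjusted p = 0.609).

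The exons were then examined one by one. Over all genes, 31.2% of 90834 single exons differed in level between the species. Of the exons of the members, all 6 of STING1 and 2 of 4 tested in CGAS were called higher. In TBK1, 5 of 20 were called higher and 0 lower. IFI16 had 1 of 4 called higher, and none was called in ZBP1 or MAVS. Exon levels were normalised in a fit of their own, so they need not average to the value of the gene.

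**Figure D3:**
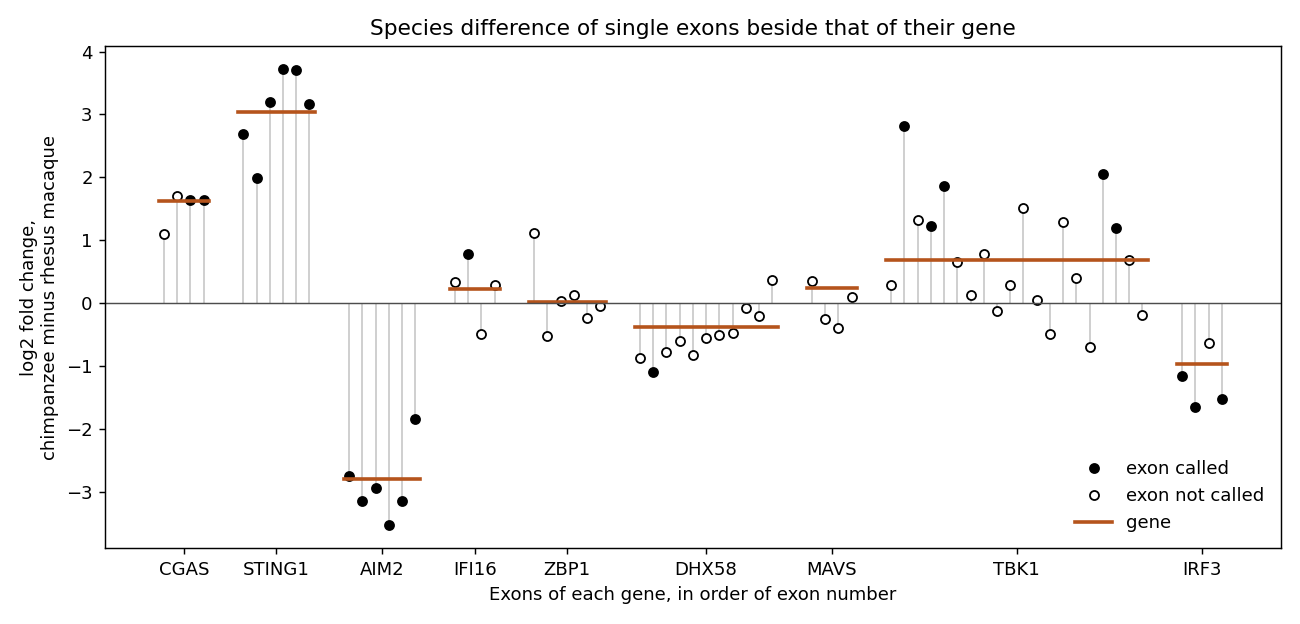
Log2 fold change, chimpanzee minus rhesus macaque, of each tested exon (points, in order of exon number) and of the gene (orange line). Filled exons passed the edgeR test over all exons. The exons of STING1 all lie above 0 and those of AIM2 and IRF3 all below, whereas those of TBK1 run from -0.70 to 2.82.

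Whether an exon departed from the level of its own gene was asked with edgeR's diffSpliceDGE, and no member exon of the 65 tested passed, nor did any of the 9 genes by the Simes method. At an unadjusted p under 0.05 there were 8 exons and 2 genes. Over all genes the test called 0.852% of exons and 4.27% of genes. The nearest was exon 3 of TBK1, 141 bases between 63140236 and 63140376. Its share of the TBK1 counts was 3.64% ± 3.17 in chimpanzee and 0.488% ± 0.842 in macaque (SD, n = 6 each, edgeR exon adjusted p = 0.0576). That exon had 45 counts in chimpanzee and 7 in macaque, and it passed when any 1 of chimpanzee replicate 5, chimpanzee replicate 6 or rhesus macaque replicate 6 was left out. The longest TBK1 exon, with 782 bases at the end of highest coordinate, held 22.1% ± 4.83 of counts in chimpanzee and 35.3% ± 9.10 in macaque (SD, n = 6 each, edgeR exon adjusted p = 0.585). Its own level was 17.7 and 17.8 CPM, and with that exon left out the TBK1 log2 fold change was 0.87 (edgeR adjusted p = 0.0087). In AIM2, the exon numbered 6 fell least of the 6, with 5.09% ± 2.87 of counts in chimpanzee and 2.39% ± 1.39 in macaque (edgeR exon adjusted p = 0.182). In IFI16, exon 2 held 15.7% ± 1.69 against 9.23% ± 0.597 (SD, n = 6 each, edgeR exon adjusted p = 0.462). Its strongest exon, exon 3, held 34.1% ± 3.83 of counts in chimpanzee and 49.2% ± 3.08 in macaque (edgeR exon adjusted p = 0.702). With exon 3 left out the IFI16 log2 fold change was 0.51 (edgeR adjusted p = 0.0681). For the other members with their exon of smallest p, the adjusted value lay at 0.414 in DHX58, 0.576 in STING1, 0.734 in IRF3, 0.812 in ZBP1, 0.871 in MAVS and 0.938 in CGAS. The shares of the exons therefore gave no call in any member at this depth.

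To compare genes with each other, CPM was divided by the length of the counted exons in kb. In chimpanzee the order by mean was IFI16 at 269.8, STING1 at 161, IRF3 at 141, AIM2 at 58.6, DHX58 at 45.5, MAVS at 34.6, TBK1 at 27.3, CGAS at 15.5, ZBP1 at 13.7 and MNDA at 0.361 CPM per kb. Each of these genes overlapped the next in range, except that ZBP1 stood clear of MNDA. In rhesus macaque it was AIM2 at 407, IRF3 at 277, IFI16 at 232, DHX58 at 59.3, MAVS at 29.4, STING1 at 19.9, TBK1 at 16.9, ZBP1 at 13.5, CGAS at 5.05 and MNDA at 0 CPM per kb. There the steps from IFI16 to DHX58, from DHX58 to MAVS and from CGAS to MNDA were without overlap. AIM2 led the order in macaque and stood behind IFI16, STING1 and IRF3 in chimpanzee, and STING1 stood next to the top in chimpanzee and below MAVS in macaque.

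Set against each other within each library, the 2 genes changed places. The AIM2 level per kb was between 0.181 and 0.938 times that of STING1 in the chimpanzee lines (median 0.327) and between 10.4 and 47.5 times in the macaque lines (median 24.0). STING1 exceeded AIM2 in 6 of 6 chimpanzee lines and in 0 of 6 macaque lines. AIM2 per kb was between 0.177 and 0.288 times IFI16 in chimpanzee and between 1.27 and 2.61 times IFI16 in macaque. IRF3 per kb was between 1.83 and 9.42 times TBK1 in chimpanzee and between 11.8 and 22.6 times in macaque. These ratios combine the differences already given and are no separate evidence of them.

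**Figure D4:**
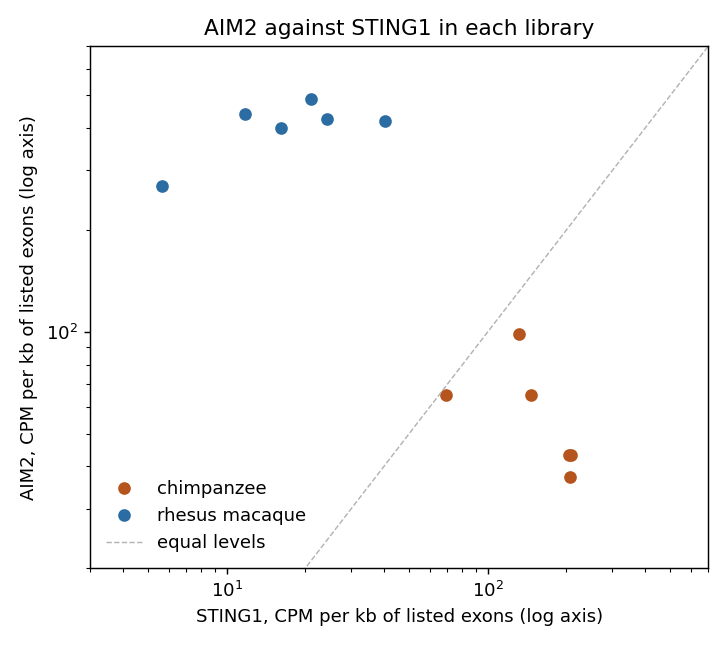
AIM2 against STING1 in CPM per kb of counted exons (both axes log), 1 point per library, with a dashed line of equal levels. All 6 chimpanzee lines lie below the line and all 6 macaque lines above it.

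Lines of one species also differed among themselves. In chimpanzee the spread (SD of log2 CPM over 6 lines) ran from 0.33 in MAVS to 0.81 in ZBP1, with a median of 0.49 against 0.48 over all tested genes. In macaque it ran from 0.16 in TBK1 to 0.93 in STING1, with a median of 0.33 against 0.45. CGAS, STING1 and ZBP1 were among the more variable genes of the macaque lines, with an SD above that of 86.0%, 89.7% and 84.3% of tested genes. TBK1 and MAVS were among the most even there, above only 3.29% and 4.97%. Over all macaque libraries CGAS, STING1 and ZBP1 had 148, 433 and 320 counts, and the part of counting error in their spread was not tested. Single lines did not move all members one way. Chimpanzee replicate 3 came closest, with 1 of 9 members above the chimpanzee mean and a median deviation of -0.27. The widest deviations of single lines from their species mean were in macaque, at -1.52 on the log2 scale for CGAS in replicate 4 and at -1.49 and 1.23 for STING1 in replicates 2 and 1. In chimpanzee STING1 in replicate 6 deviated most, by -1.11.

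Members were compared in pairs across the lines of each species, 36 pairs in each and 72 in all. With 6 lines the smallest exact permutation p is 0.00278 for rho and 0.00139 for r, which by itself adjusts to 0.2 and 0.1, so no pair alone could pass and the values are a description. The lowest adjusted p was 0.2 for both measures (two-sided), and 9 pairs had an unadjusted p under 0.05 by Pearson's r. The smallest p belonged to AIM2 and TBK1 in chimpanzee (r = 0.916, exact permutation p = 0.00278, adjusted p = 0.2, rho = 0.943, exact permutation p = 0.0167, adjusted p = 0.3, n = 6). Over the 4 lines left without the 2 farthest from the AIM2 median r was 0.639. In macaque the same pair had r = 0.535 (exact permutation p = 0.286) and rho = 0.314 (p = 0.564). AIM2 and its neighbour IFI16 ranked the chimpanzee lines in the same order (rho = 1, exact permutation p = 0.00278, adjusted p = 0.2, r = 0.909, exact permutation p = 0.0125, adjusted p = 0.3, n = 6), and r was 0.880 without the 2 farthest lines. The macaque lines gave r = 0.220 (exact permutation p = 0.733) and rho = 0.2 (p = 0.714) for AIM2 and IFI16. Relations of negative sign were seen in both species. In macaque CGAS and DHX58 had rho = -0.943 (exact permutation p = 0.0167, adjusted p = 0.3) and r = -0.618 (p = 0.201). IFI16 and IRF3 had rho = -0.886 (exact permutation p = 0.0333, adjusted p = 0.343) and r = -0.801 (p = 0.0667) in macaque. For these pairs r was 0.170 and -0.310 in chimpanzee. Other negative relations were seen in chimpanzee. MAVS and TBK1 had r = -0.911 there (exact permutation p = 0.00833, adjusted p = 0.3, rho = -0.771, p = 0.103, adjusted p = 0.389, and r = -0.554 without the 2 farthest lines) and r = -0.592 in macaque (exact permutation p = 0.207, rho = -0.543, p = 0.297). STING1 had r = -0.800 with IFI16 and -0.780 with DHX58 in chimpanzee (exact permutation p = 0.0403 and 0.0458, adjusted p = 0.385 for both), and -0.364 and -0.427 in macaque (exact permutation p = 0.486 and 0.396). IFI16 and DHX58 was the single pair under 0.05 in both species, with r = 0.888 in chimpanzee (exact permutation p = 0.0236, rho = 0.771, p = 0.103, adjusted p = 0.38 for r and 0.389 for rho) and r = 0.831 in macaque (exact permutation p = 0.0361, rho = 0.657, p = 0.175, adjusted p = 0.385 for r and 0.525 for rho, n = 6 each). Without the 2 farthest lines r was 0.860 in chimpanzee and 0.261 in macaque, so that the macaque relation did not hold over the 4 lines left, whose range is narrower. By correlation of deviations from the species mean over all 12 libraries, the most alike member was DHX58 for IFI16 and IFI16 for DHX58 (0.86), TBK1 for AIM2 and AIM2 for TBK1 (0.84), and IRF3 for MAVS and MAVS for IRF3 (0.62). For ZBP1 it was MAVS (0.41), for CGAS it was TBK1 (0.33) and for STING1 it was IRF3 (0.18). Chimpanzee replicate 1, the library with the fewest counts, deviated by 0.82 in AIM2, 0.77 in TBK1, -0.51 in MAVS and -0.70 in IRF3. In IFI16 and DHX58 that library deviated by 0.37 and 0.18. The chimpanzee r values given without the 2 farthest lines leave out replicate 1 together with replicate 5. The part of replicate 1 alone in these correlations was not tested.

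The labels also give sex. Between female and male lines no member passed in chimpanzee (3 against 3 lines) or in macaque (2 against 4), and none differed in its sex effect by species (edgeR quasi-likelihood test). Over all 11045 genes tested 0% passed in each of these tests. Without adjustment 797, 268 and 573 genes had a p under 0.05, and DESeq2 called 49, 0 and 14. Of the members, 0, 1 and 0 had an unadjusted p under 0.05, and DESeq2 called 0 in each test. The member in macaque was CGAS, at 2.263 and 6.34 CPM in the 2 female lines and from 7.90 to 12.5 CPM in the 4 male lines (log2 fold change, female minus male, -1.34, SE 0.56, edgeR adjusted p = 1), and the sex effects of the species did not differ by test (edgeR adjusted p = 0.938). In chimpanzee the CGAS means were 26.3 CPM in females and 27.7 CPM in males. With sex as a covariate, the species difference in CGAS was 1.81 on the log2 scale (edgeR adjusted p = 0.00237), and CGAS then passed the test beyond 2-fold.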

How the data were processed

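The deposited files hold raw counts of reads per exon, 1 file for each of 12 libraries, per the file contents. No label or header names the aligner, counter, genome build or exon definitions, so positions are those of the files, on a build not named. An exon absent from a file was taken as 0, and exon counts were summed per gene. The species test was edgeR 4.0.16 (R 4.3.3, limma 3.58.1), quasi-likelihood, with TMM factors, the default expression filter (minimum count 10, minimum total 15), species as the only term, all 12 libraries and Benjamini-Hochberg adjustment over all genes tested. Standard errors were taken from the fold change and its F statistic, and intervals are approximate. glmTreat tested differences beyond 2-fold, diffSpliceDGE tested exons with at least 10 counts, and sex was tested in a fit of 4 groups. CPM used TMM-scaled library sizes, with a prior count of 2 for log2 values. No 2 libraries of a species agreed within sampling noise. Replicates were numbered in accession order.

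All members were named. The members and lists were chosen with earlier results of these data known. Lists of pathway genes, interferon-induced genes and cell type markers need symbols, which the files do not pair with identifiers (0 of 16903 matched), and were not run. Reads carry no molecular identifiers, so floors cover counting error only. Alternatives were DESeq2 1.42.0, RLE size factors, no filter, sex as a covariate, other exon sets, thinning and leaving out libraries.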

Additional observations from a re-analysis of the deposited data

Results flagged for a closer look

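AIM2 stood apart in 1 library. Rhesus macaque replicate 2 held 438 CPM, while the other 5 macaque lines ran from 652 to 796 CPM, and the gap to the nearest line was 0.667 of the group's range on the log2 scale, above Dixon's critical value for 6 samples. On the CPM scale it was 0.599, below that value. It was 1 of 18 groups (9 genes in 2 species) looked at in this way, and chance marks about 1 in 20. Without that library the log2 fold change of AIM2 was -2.92.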

How the results depend on the processing

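The 5 species calls (STING1, CGAS and TBK1 higher, AIM2 and IRF3 lower in chimpanzee) held their direction and stayed past the threshold under all 20 alternatives, 1 of which, the removal of chimpanzee replicate 1 and rhesus macaque replicates 5 and 6 together, was chosen after seeing the data. The log2 fold changes ranged from 2.82 to 3.34 for STING1, 1.38 to 1.81 for CGAS, 0.48 to 0.87 for TBK1, -3.01 to -2.71 for AIM2 and -1.09 to -0.86 for IRF3. The highest adjusted p was 0.0436, for TBK1 without rhesus macaque replicate 2. None of the alternatives changed how exons were matched between the species. The count past the 2-fold test was 2 or 3, with CGAS as the third when sex was a covariate or the strongest exon was left out. Genes called over the whole table ran from 1795 to 3185 higher and from 1708 to 3151 lower. ZBP1 changed sign with DESeq2 (-0.0034), with RLE size factors (-0.0017) and without single libraries (from -0.27 to 0.32), and MAVS without its strongest exon (-0.0057). All of these were far from the threshold. Leaving out single libraries gave 0 to 1 member exons and 0 to 1 member genes in the exon usage test, and 0 members for sex. The low counts of CGAS, ZBP1 and MNDA limit what could be seen in them.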
